A study of Sus scrofa with 16 samples.

Results

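The endometrium is the lining of the uterus, and oestradiol (E2) is the main oestrogen of the ovary. Small RNA of the endometrium was compared between 4 sows fed E2 at 10 µg per kg body weight per day and 4 sows fed the ethanol carrier alone. Feeding ran from insemination, and all 8 sows were adult and pregnant at sampling on day 10. The 8 sows were chosen by their labelled dose, and they stand among 15 sows (16 libraries) that also received lower or higher doses. The uterus of each sow was flushed with buffered saline before pieces of endometrium were taken and frozen. Each library comes from 1 sow, and no label gives a batch. The samples are whole tissue, so fewer cells of a type and less RNA per cell cannot be told apart.

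MicroRNAs (miRNAs) are RNAs of about the length of the reads described here that are cut from hairpin precursors and loaded into Argonaute proteins. They lower the stability and translation of mRNAs that pair with their seed, bases 2 to 8 of the miRNA, and miRNAs with the same seed form a family. In the pig the early conceptus itself secretes oestrogen, a signal in the maternal recognition of pregnancy. The comparison addresses whether a middle oral dose of oestradiol altered the small RNA of the endometrium at this stage.

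Reads of 18 to 26 nt that shared their first 18 bases were counted as 1 read group, named by its most abundant read. Of 3610231 such groups, 26704 held at least 30 reads over the 15 sows and 11123 passed the filter on low counts. A miRNA name here is a seed-family name: bases 2 to 8 of the group equal the seed of that family, and the other bases were not matched to a reference. The seeds of 124 families were searched. They gave 370 groups, of which 100 were set aside because at least 20% of their occurrences lay inside reads of 27 to 49 nt. The other 270 are called miRNA read groups below. Of these, 201 passed the filter and were tested, and 69 were too low to test.

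The 8 libraries held 7363900 to 11084974 reads in the controls and 9285240 to 14945018 reads in the dosed sows. They fell into 2 kinds by length, with 2 sows of each group in each kind. In control sows 1 and 2 and dosed sows 8 and 9, under 8% of reads were 17 to 19 nt long and 11.3 to 12.6% were 40 to 49 nt long. In control sows 3 and 4 and dosed sows 10 and 11, over 8% were 17 to 19 nt long and 0.976 to 2.83% were 40 to 49 nt long. These are called the under-8% and the over-8% libraries, and differences within each kind (2 against 2 sows) are given beside the pooled ones. The share of reads of 17 to 19 nt was 9.01 ± 3.80 against 10.0 ± 5.38% (control against dosed, mean ± SD, n = 4 each), and that of 18 to 26 nt was 59.0 ± 7.32 against 64.6 ± 14.4%. miRNA read groups held 34.5 ± 3.52 against 38.8 ± 7.56% of reads, and the 10 most abundant held 58.8 ± 3.26 against 60.1 ± 2.34% of those. None of 8 measures of composition passed the test over all 8 sows: the smallest p was 0.343 (two-sided exact permutation test over 70 splits, whose smallest possible p is 0.0286), and all adjusted p were 0.83. That test takes no account of the library kinds. Within the over-8% libraries the share of 18 to 26 nt was 67.8 and 62.1% in controls 3 and 4 and 78.4 and 74.7% in dosed sows 10 and 11 (difference 11.6 percentage points), and that of 27 to 39 nt was 26.9 and 29.8% against 16.2 and 18.2% (difference -11.2 points). miRNA read groups held 39.6 and 32.0% of reads in those controls and 48.2 and 37.6% in those dosed sows. Within the under-8% libraries these differences were -0.459, 0.619 and 1.39 points, so the direction for 18 to 26 nt and for 27 to 39 nt turned between the kinds. These within-kind values, 2 against 2 sows, were not tested.

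**Figure D1:**
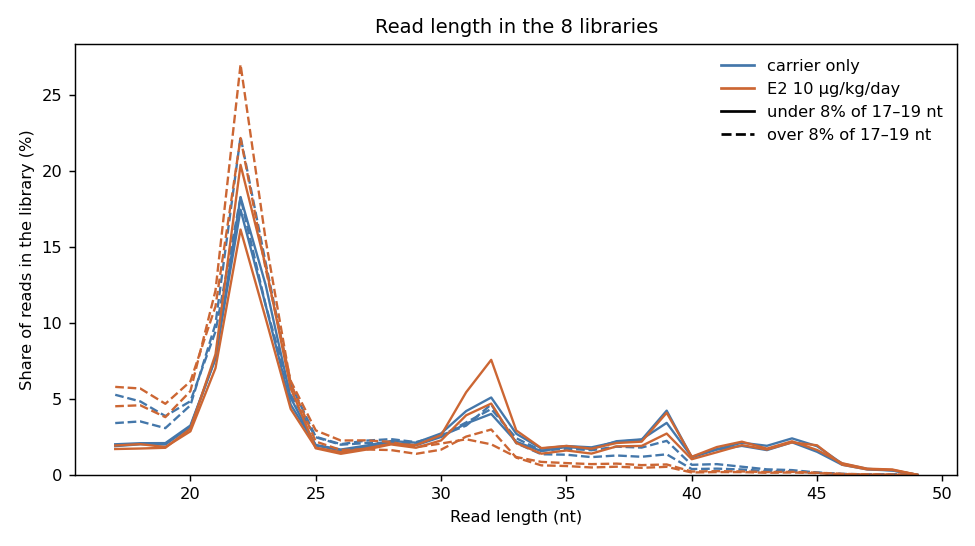
Share of reads (%, vertical axis) by read length (nt, horizontal axis) in the 8 libraries, 1 line per sow, coloured by group and dashed for libraries with over 8% of reads of 17 to 19 nt. All 8 lines peak at the same length, and the lines of the 2 library kinds, not of the 2 groups, part at 40 nt and above (11.3 to 12.6% against 0.976 to 2.83%).

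The sequences of the most abundant miRNA read groups and of those the results turn on follow, 5′ to 3′ as read from the libraries, with the seed in capitals. They show which of the close relatives within a family each value belongs to.
miR-21: tAGCTTATcagactgatgttgac
miR-143: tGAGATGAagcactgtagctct
miR-10 read 1: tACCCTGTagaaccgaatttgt
miR-10 read 2: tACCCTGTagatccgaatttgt
let-7 read 1: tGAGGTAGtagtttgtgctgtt
let-7 read 2: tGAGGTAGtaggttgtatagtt
let-7 read 3: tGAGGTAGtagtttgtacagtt
let-7 read 4: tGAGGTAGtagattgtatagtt
let-7 read 5: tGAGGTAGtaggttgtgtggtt
miR-148 and miR-152: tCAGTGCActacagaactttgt
miR-27: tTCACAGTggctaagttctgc
miR-26: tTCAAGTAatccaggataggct
miR-30: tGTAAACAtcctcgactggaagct
miR-99 and miR-100: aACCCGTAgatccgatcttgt
miR-200a and miR-141: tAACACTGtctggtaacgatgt
miR-200b, miR-200c and miR-429: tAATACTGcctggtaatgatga
miR-34 and miR-449: aGGCAGTGtagttagctgattgc
miR-378: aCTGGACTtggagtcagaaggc
miR-450a: tTTTGCGAtgtgttcctaatac
miR-542: tGTGACAGattgataactga
miR-503: tAGCAGCGggaacagtactgcag
miR-203: gTGAAATGtttaggaccactag
miR-205: tCCTTCATtccaccggagtctgt
The 2 miR-10 reads share their seed and both ends and differ in between, and the 5 let-7 reads share more of the 5′ end than the seed.

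No read group passed the test at 10 µg/kg/day. edgeR's quasi-likelihood test called 0 of 11123 groups (0%) at an adjusted p under 0.05, and 0 of the 201 miRNA read groups (0%). At an unadjusted p under 0.05 stood 376 groups (3.38%) and 3 miRNA read groups (1.49%). DESeq2 also called 0 groups, with 384 under an unadjusted p of 0.05. Summed by seed, 0 of 119 families were called and 3 had an unadjusted p under 0.05 (2.52%), those of miR-378, miR-450a and miR-203. A family sum takes every group of at least 30 reads with the seed and under 20% of occurrences in longer reads. It thus also holds 1-base variants and shifted reads that were left out of the miRNA read groups. All 4 dosed sows lay above all 4 controls in 0.773% of all groups and below them in 0.692%. Among the miRNA read groups, 1 of 201 (0.498%), that of miR-378, lay above in all dosed sows, and 0 lay below, and of the families 1 of 119 (0.84%), again miR-378, lay above. Within the under-8% libraries alone 1 read group was called and within the over-8% libraries 51, none of them a miRNA read group. Of the 11123 groups, 8980 were also tested within the under-8% and 10824 within the over-8% libraries. Of the 51 called, 40 had a mean under 10 CPM, and with 2 against 2 sows 1 sow can decide a call. Without control 2, dosed sow 8 or dosed sow 9 edgeR called 1 group each, described below. The values below are therefore levels with their spread, given in CPM, which are counts relative to the TMM-scaled total of 18 to 26 nt reads. Differences are log2 values, dosed minus control, and each adjusted p of a named miRNA read group was 1.00. Values of single sows are in the order of controls 1, 2, 3, 4 and dosed sows 8, 9, 10, 11.

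The 95% intervals bound what these 8 sows could show. Of 117 miRNA read groups of at least 100 CPM, 104 had an interval that lay wholly within 1 log2 unit of no difference, and the median interval reached 0.54 to each side. By family, 71 of 80 of at least 100 CPM lay within the same limits. For the other 13 groups and 9 families a difference larger than 1 log2 unit lies inside the interval.

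The levels of the miRNAs that lead the endometrial libraries overlapped between the groups. miR-21, which is raised in many proliferating and inflamed tissues, had 118788, 174567, 118153 and 67685 CPM in the controls and 136092, 233328, 129798 and 72829 CPM in the dosed sows. The highest level (sow 9) and the 2 lowest (control 4 and dosed sow 11) show the groups overlapping, with a difference of 0.26 (95% interval -0.35 to 0.86). miR-143, typical of smooth muscle and stroma, had 70356, 71845, 45567 and 36717 CPM in the controls and 62044, 78643, 63573 and 31395 CPM in the dosed sows. The miR-143 difference was 0.07 (95% interval -0.72 to 0.86), and sow 11 was the lowest of the 8. The first miR-10 read, of a family encoded within the Hox gene clusters, had 30754, 38134, 33899 and 18315 CPM in the controls and 40059.6, 44118, 39279.6 and 23728 CPM in the dosed sows, and differed by 0.28 (95% interval -0.20 to 0.77). The second miR-10 read differed by 0.25 (95% interval -0.22 to 0.72).

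The let-7 family, which restrains growth genes and marks differentiated cells, was present as 9 tested groups. Its first read had 24373, 38528, 30732 and 19832 CPM in the controls and 26757, 46292, 33108 and 21390.4 CPM in the dosed sows. In that read the spread within each group was wider than the difference of 0.17 (95% interval -0.38 to 0.72). The other 4 let-7 reads shown above differed by 0.10, 0.09, 0.17 and 0.07. Over the 9 tested let-7 groups, 7 were higher and 2 lower in the dosed sows, with a median of 0.09. Over all 201 miRNA read groups 73.6% were higher, with a median of 0.12. Over all 11123 groups 51.6% were higher, with a median of 0.01. Summed, let-7 groups came to 72183 to 95578 CPM in the controls and 67014 to 127162 CPM in the dosed sows.

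Among the other abundant reads, miR-148 and miR-152 had 18486, 26673, 20021 and 15993 CPM in the controls and 20736, 41338, 23918 and 14431 CPM in the dosed sows, a difference of 0.31 (95% interval -0.25 to 0.87). miR-27, which shares its cluster with miR-23 and miR-24, had 22829, 19578, 17057 and 17686 CPM in the controls and 20048, 25940.4, 23449 and 13945 CPM in the dosed sows, a difference of 0.11 (95% interval -0.36 to 0.58). miR-26 had 20657, 16338, 17153 and 10920.5 CPM in the controls and 19108, 21015, 19013 and 12161 CPM in the dosed sows, a difference of 0.13 (95% interval -0.36 to 0.63). In all of these the groups overlapped, and sow 9 was the highest of the 8. miR-30 had 18037, 14540.4, 15095 and 14998 CPM in the controls and 16579.5, 27286, 13671 and 9140.4 CPM in the dosed sows. Within the under-8% libraries the miR-30 difference was 0.38, and within the over-8% libraries it was -0.39. miR-99 and miR-100 had 17362, 15199.6, 15438 and 16514 CPM in the controls and 16641, 18871, 17388 and 11792 CPM in the dosed sows, and differed by 0.00 (95% interval -0.46 to 0.47).

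**Figure D2:**
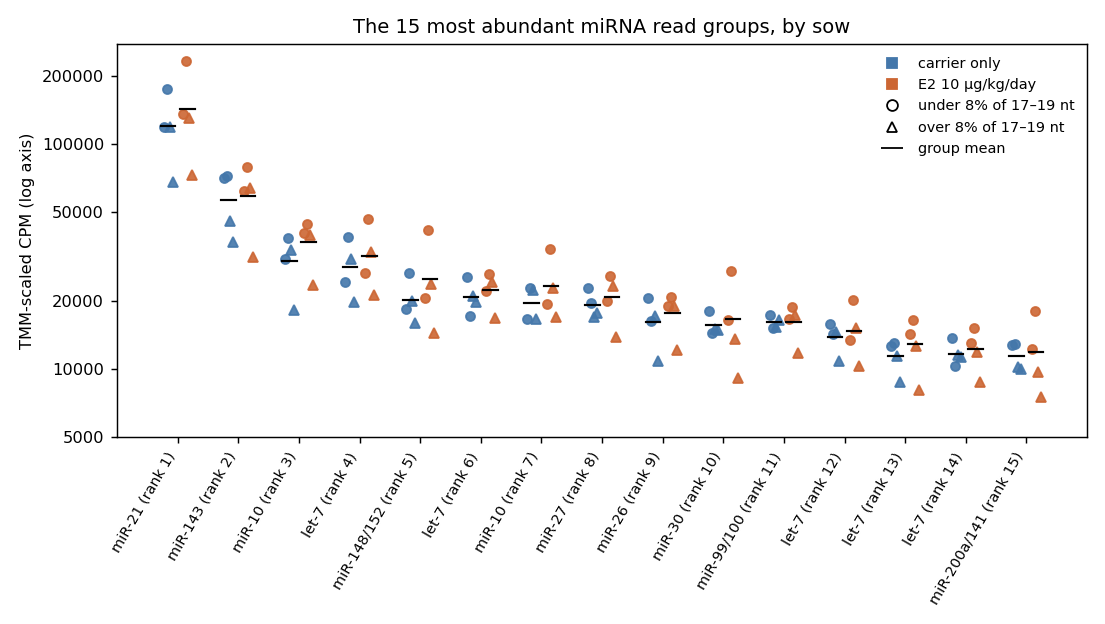
Level of the 15 most abundant miRNA read groups in each sow (TMM-scaled CPM, log axis, vertical; groups by seed-family name and rank, horizontal), coloured by group, with circles for under-8% and triangles for over-8% libraries and a bar at each group's mean. In every one of the 15 the 2 groups overlap, and in miR-21 the sows run from 67685 to 233328 CPM.

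More miRNA read groups were higher than lower in the dosed sows: 148 of 201 (73.6%), against 51.6% of all groups, with medians of 0.12 and 0.01. By family, 96 of 119 (80.7%) were higher. This share followed single libraries. Without dosed sow 9 it was 45.3% of miRNA read groups, without dosed sow 11 it was 91.0%, and without control 4 it was 57.7%. Of the 117 groups of at least 100 CPM, sow 9 was the highest of the 8 sows in 75, sow 11 the lowest in 63 and control 4 the lowest in 46. Summed over all miRNA read groups, the levels were 646223, 696011, 579936 and 435474 CPM in the controls and 656689, 920438, 648499 and 406721 CPM in the dosed sows. The highest and the lowest sum are thus both from dosed sows. The factors by which TMM scaled the libraries were 0.747 for sow 9 and 1.24 for sow 11, the lowest and highest of the 8. The part of these factors in the result was not tested. Scaled by all deposited reads instead, 76.1% of miRNA read groups and 82.4% of families were higher, against 63.8% of the 10913 groups tested under that scaling. Fitted and scaled among themselves alone, an alternative added after seeing the data, 108 of the 201 miRNA read groups (53.7%) were higher, with a median of 0.01. TMM centres the differences of the groups it is given, so this share and median are largely set by the scaling. They do not bear on the shares above.

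miR-378, a miRNA encoded within a gene of energy metabolism and active in muscle and fat cells, had the smallest p of the tested miRNA read groups. It had 1047, 1309.5, 1085 and 736 CPM in the controls and 1360.1, 1785, 2106 and 1348 CPM in the dosed sows. Each dosed sow was above each control, the lowest dosed sow by a margin smaller than the spread within either group. The means were 1044 ± 236 against 1649.8 ± 366 CPM (SD, n = 4), and the difference was 0.66 (95% interval 0.10 to 1.22), with an unadjusted p of 0.0238, while 3.38% of all groups had a p under 0.05. The difference was 0.37 within the under-8% libraries and 0.93 within the over-8% libraries, and it ranged from 0.52 to 0.79 as each sow was left out in turn. miR-378 was chosen for display as a read after its values were seen; as a family it was among the 5 of smallest p, at 1081 ± 246 against 1698 ± 378 CPM.

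The X-linked cluster of miR-424, miR-503, miR-542 and miR-450, whose members slow the cell cycle and are known from the ovary and uterus, had 4 tested groups, and all 4 were higher in the dosed sows. Their median difference was 0.60, against 0.12 over all miRNA read groups, and 0.69 and 0.48 within the under-8% and over-8% libraries. miR-450a had 1053, 1475, 1303 and 732 CPM in the controls and 1516, 2332, 1956 and 1159.8 CPM in the dosed sows, and differed by 0.61 (95% interval 0.07 to 1.14). miR-542 had 333, 654, 427 and 197 CPM in the controls and 694, 1005, 675 and 303 CPM in the dosed sows, and differed by 0.73 (95% interval 0.00 to 1.47). miR-503 had 20.8, 46.0, 34.6 and 23.3 CPM in the controls and 45.3, 63.2, 41.8 and 30.7 CPM in the dosed sows, and differed by 0.53 (95% interval -0.06 to 1.13). In each of these reads sow 9 was the highest and the 2 groups overlapped, control 2 being above dosed sow 11. Without sow 9 the differences of miR-450a, miR-542 and miR-503 were 0.44, 0.47 and 0.33. The remaining group of the 4, also with the miR-503 seed, stood at 0.982 to 2.99 CPM in the controls and 1.98 to 2.77 CPM in the dosed sows. Summed, the cluster came to 954 to 2176 CPM in the controls and 1496 to 3404 CPM in the dosed sows. The seed of miR-424 itself is shared with miR-15 and miR-16 and was not counted in this cluster.

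miR-203 and miR-205 are typical of squamous and basal epithelium, and they stood on opposite sides. miR-203 had 484, 1974, 388 and 1810.0 CPM in the controls and 605, 899, 557 and 364 CPM in the dosed sows. Controls 2 and 4 were more than 3 times as high as controls 1 and 3, and the dosed sows ran from 364 to 899 CPM. The difference was -0.94 (95% interval -2.03 to 0.15), -0.76 and -1.25 within the 2 library kinds, and -1.21 to -0.56 as sows were left out. As a family, miR-203 also differed by -0.94, with a 95% interval of -1.85 to -0.028 and an unadjusted p of 0.0440 in edgeR's test. miR-205 had 359.5, 419, 371 and 139 CPM in the controls and 385, 745, 454 and 358 CPM in the dosed sows, and differed by 0.59 (95% interval -0.14 to 1.32). Neither passed the test.

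**Figure D3:**
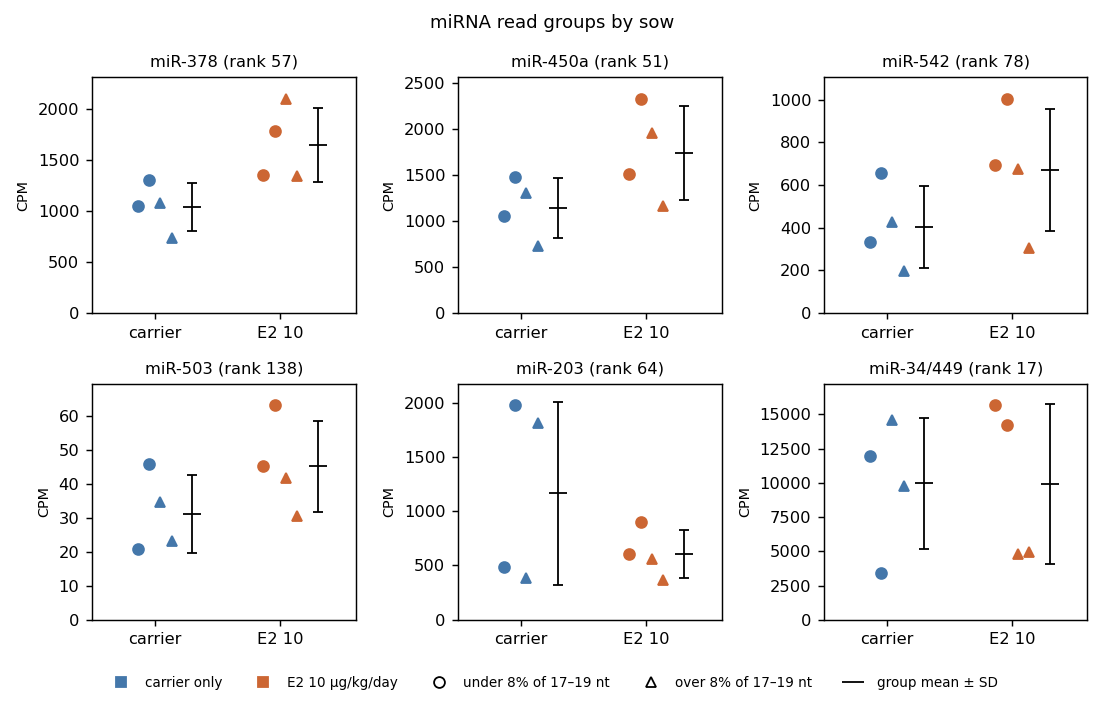
Level (CPM, vertical axes, each from 0) in each sow for 6 miRNA read groups, controls left and dosed sows right, with circles for under-8% and triangles for over-8% libraries and the group mean ± SD beside each. The miR-378 points of the dosed sows (1348 to 2106) all lie above those of the controls (736 to 1310), the miR-203 controls form 2 pairs, and miR-34 and miR-449 split by library kind in the dosed sows.

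miR-34b, miR-34c and miR-449 are rich in ciliated cells, which form part of the uterine epithelium. They were listed as 2 seed families: miR-34 and miR-449, whose seed is also that of miR-34a, and miR-34b and miR-449c. The leading read, of the miR-34 and miR-449 family, had 11999, 3439, 14588 and 9805 CPM in the controls and 15660.4, 14211, 4784 and 4953 CPM in the dosed sows. Control 2 and dosed sows 10 and 11 were low, and the other 5 sows were between 9805 and 15660 CPM. The pooled difference was -0.01 (95% interval -0.95 to 0.93), but it was 0.92 within the under-8% libraries and -1.32 within the over-8% libraries. All 5 tested groups of this list were lower in the pooled fit (median -0.08), 4 of 5 in the fit scaled by all reads, with medians of 0.62 and -1.32 within the 2 library kinds. The difference between the kinds was not tested.

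No group among the epithelial markers passed the test. miR-200a and miR-141, which hold epithelial cells in their state by repressing ZEB factors, had 12753, 12999, 10206 and 10071 CPM in the controls and 12269, 18189.5, 9692 and 7553 CPM in the dosed sows, and differed by 0.05 (95% interval -0.49 to 0.59). miR-200b, miR-200c and miR-429, of the same 2 clusters, had 8821, 9845, 8602 and 7651 CPM in the controls and 8874, 13839.5, 8611 and 6696 CPM in the dosed sows, and differed by 0.12 (95% interval -0.32 to 0.57). Of 4 tested groups of the miR-200 family 3 were higher, with a median of 0.07. Of 4 tested groups with the seeds of the miR-183 cluster of sensory and epithelial cells 1 was higher (median -0.05). The most abundant of them, miR-182, differed by -0.06 (95% interval -0.57 to 0.44). A read with the miR-96 seed, cTTGGCACctagtaagcactca, differed by 0.29 (95% interval -0.16 to 0.74). That read was the 1 higher group of the 4. Its bases after the seed were not matched to that miRNA, so it may not belong to the cluster.

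In the stromal list (miR-10, miR-199, miR-214, miR-125, miR-99, miR-29, miR-148 and miR-152 seeds) 22 of 25 tested groups were higher in the dosed sows, with a median of 0.23, against 73.6% and 0.12 over all miRNA read groups. Its 2 largest miR-199-5p reads differed by 0.20 and 0.25, and its miR-199-3p read by 0.23. A second read with the miR-148 and miR-152 seed, tCAGTGCAtgacagaacttggt, had 2319, 2934, 2109 and 1362 CPM in the controls and 3024, 3530.5, 3108 and 1679 CPM in the dosed sows, and differed by 0.38 (95% interval -0.14 to 0.90). In the smooth muscle list 6 of 8 were higher (median 0.06), the main miR-145 read at 0.12. The endothelial list had 3 of 3 higher (median 0.19). miR-126-3p, which supports vessel integrity, had 6845, 5908, 5025 and 3719 CPM in the controls and 7044, 8142, 5889 and 3173 CPM in the dosed sows, and differed by 0.17 (95% interval -0.43 to 0.78). Its partner strand miR-126-5p differed by 0.23 (95% interval -0.37 to 0.82). None of these groups passed the test.

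Blood and immune miRNAs varied by single sows. miR-451, made in red cells without Dicer, had 1183, 1512, 1349 and 1209 CPM in the controls and 2266, 1537, 1278 and 1124 CPM in the dosed sows. Dosed sow 8 was the highest, and without it the difference of 0.24 fell to 0.01. miR-486, also of red cells, had 31.1, 27.1, 75.6 and 47.1 CPM in the controls and 62.6, 46.6, 53.4 and 52.6 CPM in the dosed sows, and differed by 0.25 (95% interval -0.37 to 0.86). In the leukocyte list 5 of 7 tested groups were higher (median 0.14). Its leading miR-146 read, induced in inflammation, had 237, 374, 304 and 725 CPM in the controls and 402, 529, 342 and 164 CPM in the dosed sows. The highest level here was control 4. Without that sow the miR-146 difference of -0.19 became 0.24. miR-150 of lymphocytes had 127, 155, 95.1 and 82.9 CPM in the controls and 166, 249, 115 and 63.4 CPM in the dosed sows, and differed by 0.36 (95% interval -0.36 to 1.09).

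**Figure D4:**
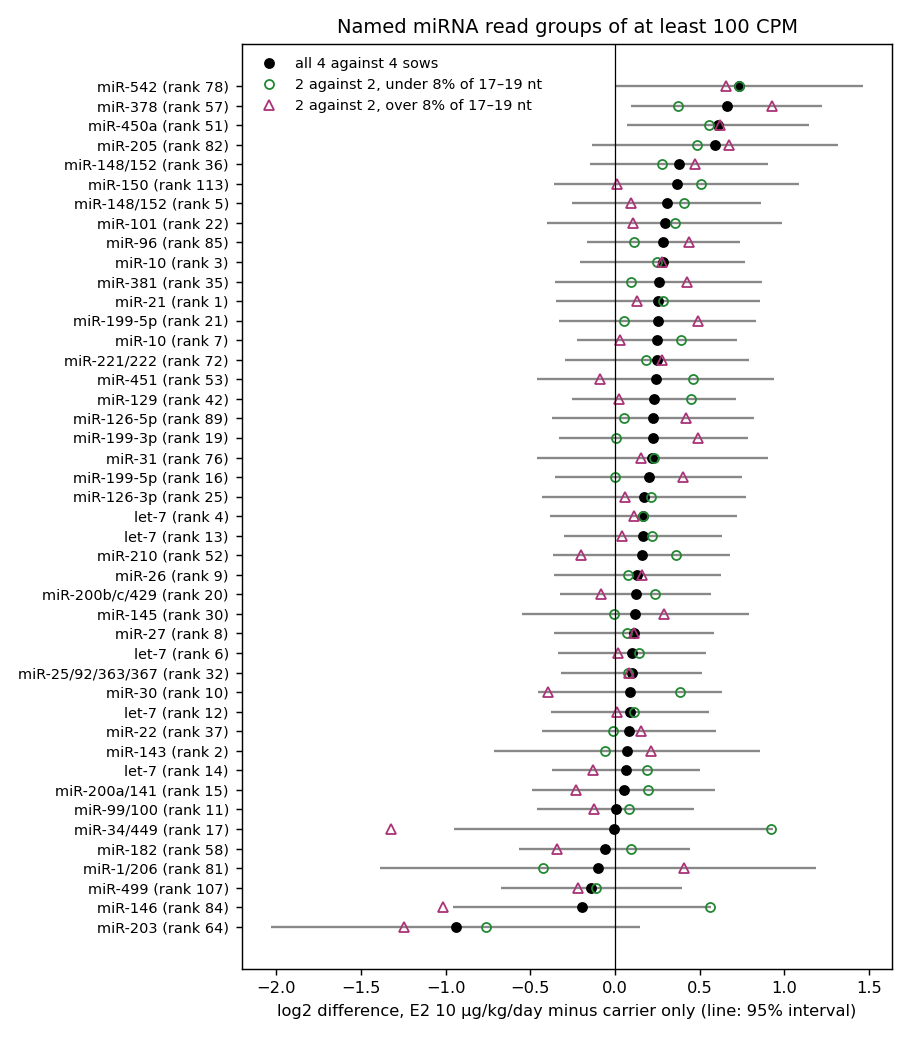
Difference between the groups (log2, dosed minus control, horizontal axis) of the named miRNA read groups of at least 100 CPM, by seed-family name and rank (vertical axis). Filled points are the 4 against 4 sows with their 95% interval, open circles the under-8% and triangles the over-8% libraries alone. The intervals of miR-378, miR-450a and, by less than the width of its line, miR-542 lie above 0, those of the other plotted groups include 0, and miR-34 and miR-449 have the widest gap between the 2 library kinds.

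Oestrogen-linked miRNAs were a list of 6 families (miR-21, miR-22, miR-26, miR-181, miR-193, and miR-221 with miR-222). Of its 14 tested groups 9 were higher and 5 lower, with a median of 0.06. The smallest p in it was that of a read with the miR-221 and miR-222 seed, aGCTACATtgtctgctgggttt, at 690.1, 641, 631 and 359 CPM in the controls and 635, 928, 718 and 478 CPM in the dosed sows, a difference of 0.25 (95% interval -0.30 to 0.79). miR-22, which targets the oestrogen receptor alpha mRNA, differed by 0.08. Implantation-linked miRNAs (miR-30, miR-101, miR-181c, miR-31 and others) had 15 of 22 higher and a median of 0.14. The miR-101 read differed by 0.29, and miR-31 had 512, 711, 755 and 253 CPM in the controls and 650.2, 833, 638 and 479 CPM in the dosed sows, a difference of 0.22 (95% interval -0.46 to 0.90). In the miR-17-92 group, which drives proliferation, 10 of 12 were higher (median 0.11). Its leading read, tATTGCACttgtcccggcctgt, differed by 0.10 (95% interval -0.32 to 0.51). miR-210, induced in hypoxia, differed by 0.16 (95% interval -0.36 to 0.68). The miR-23, miR-27 and miR-24 clusters had 4 of 4 higher (median 0.09).

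The DLK1-DIO3 cluster is an imprinted region whose many miRNAs are expressed from the maternal copy. Of its 21 tested groups 17 were higher (median 0.15), with medians of -0.07 and 0.33 within the under-8% and over-8% libraries. miR-381, the most abundant, had 2810.3, 3639.5, 2409 and 1588 CPM in the controls and 2508, 4644, 3708 and 1636 CPM in the dosed sows, and differed by 0.26 (95% interval -0.35 to 0.87). The smallest p of the list was that of a read with the miR-134 seed, tGTGACTGtggcctaggccagc, at 0.239, 0.242, 0.199 and 0.368 CPM in the controls and 2.97, 1.00, 0.180 and 1.81 CPM in the dosed sows. It was below 3 CPM in every sow. As a family, the miR-134 seed had 3.11, 4.60, 0.796 and 1.72 CPM in the controls and 4.36, 7.77, 3.24 and 3.71 CPM in the dosed sows, and differed by 0.90 (95% interval -0.09 to 1.89).

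miRNAs typical of tissues other than endometrium were also read. miR-1 and miR-206 of skeletal and heart muscle had 757, 437, 339 and 182 CPM in the controls and 419, 496, 486 and 201 CPM in the dosed sows, and 1 of 4 tested muscle groups was higher in the dosed sows (median -0.12). miR-499 of slow and heart muscle had 188, 171, 184 and 128 CPM in the controls and 146, 196, 165 and 101 CPM in the dosed sows. miR-122, the liver miRNA, had 18.7, 17.4, 19.1 and 17.1 CPM in the controls and 18.8, 27.1, 19.3 and 14.4 CPM in the dosed sows. A read with the miR-129 seed, aTTTTTGCaagactgaggct, had 1376, 1646, 2447 and 1984 CPM in the controls and 2004, 2245, 2386 and 2109 CPM in the dosed sows, and its bases after the seed were not matched to that miRNA of the brain. No group with the seed of miR-302, a marker of pluripotent cells of the conceptus, was found.

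The 10 read groups with the smallest p over all 11123 were rare, below 50 CPM in every sow, and most were fragments of longer RNAs. In 7 of them 76.7% or more of occurrences lay inside reads of 27 to 49 nt. The smallest p belonged to tctctatccgaggacaatatatt, at 0, 0, 0 and 0 CPM in the controls and 4.16, 0, 3.87 and 4.53 CPM in the dosed sows, with an adjusted p of 0.470. It was in 3 of 4 dosed sows and in no control, and without dosed sow 9 edgeR's adjusted p was 0.00730. The third, tccgtttgcctgttttgctga, had 4.07, 3.39, 3.98 and 1.72 CPM in the controls and 8.91, 6.27, 6.84 and 6.26 CPM in the dosed sows. It was higher in each dosed sow than in each control, with a difference of 1.13 (95% interval 0.53 to 1.72). Another, acaacgggaactccatattttt, had 0, 0.484, 0 and 0 CPM in the controls and 0.198, 6.27, 6.12 and 1.98 CPM in the dosed sows. Lower in each dosed sow was cggccctggcggagcgctgaga, at 10.5, 48.2, 10.3 and 22.3 CPM in the controls and 9.90, 9.03, 7.92 and 9.56 CPM in the dosed sows. A read like miR-203 that starts 1 base later and differs at 1 base, tggaatgtttaggaccactagt, had 2.87, 10.17, 3.18 and 7.73 CPM in the controls and 1.58, 3.01, 1.98 and 1.40 CPM in the dosed sows. Among all reads that held the 12 bases around the changed base, the variant made 0.342 to 0.591% in the 8 sows. It thus followed the level of the reads with the common base. The substitution is A3G, counted from 1 at the first base of the shifted read. The other 5 were agttaacatttgactgagt, caatacaggactctttcga, cccgcgggcgctctccagcccttt, cgtggagccgggcgtggaatgcgagt and cagccgacttagaactggtgcggacc, with differences of 2.58, -2.60, -1.45, -2.09 and -1.40. Control 2 was the highest of the 8 sows in 3 of these 5. Of them, agttaacatttgactgagt passed the test without control 2 (edgeR's adjusted p = 0.0447) and cccgcgggcgctctccagcccttt without dosed sow 8 (edgeR's adjusted p = 0.0480).

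Control 2 stood out in several seed-bearing reads that were set aside as pieces of longer fragments. A read with the miR-122 seed, aGGAGTGTgtaacaactca, had 5.26, 167, 4.18 and 9.45 CPM in the controls and 2.18, 3.26, 3.24 and 5.44 CPM in the dosed sows, and 95.2% of its occurrences were in reads of 27 to 49 nt. Its difference of -3.66 became -0.82 without control 2. A read with the miR-10 seed, gACCCTGTtgagcttgactct, had 8.85, 83.5, 8.76 and 16.9 CPM in the controls and 7.52, 8.02, 8.01 and 11.7 CPM in the dosed sows, a difference of -1.72 that became -0.39 without control 2. With the miR-219 seed, tGATTGTCatgttctgatt had 62.9, 74.1, 81.4 and 88.0 CPM in the controls and 94.4, 101, 113 and 90.4 CPM in the dosed sows. All dosed sows were above all controls in it, at a difference of 0.38 (95% interval -0.14 to 0.90) and 92.6% of occurrences in longer reads.

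The ends of miRNAs carry variants: 3′ ends are trimmed or given an added A or U, and a shifted start changes the seed. For 94 groups with at least 500 reads in each sow, 4 measures were formed. They are the mean 3′ end relative to the leading read in bases, the shares of reads that equal the leading read plus 1 A or plus 1 T (U in RNA), and the share that starts up to 2 bases earlier or later. Without a reference, a last A or T that was added cannot be told from one cut from the precursor, and both count as tails here. limma called 0 of 376 measures at an adjusted p under 0.05, and 5 had an unadjusted p under 0.05 (1.33%). Of the 376 measures 58.5% were higher in the dosed sows. The medians over the 94 groups were 1.91 against 1.89% for the A tail, 4.28 against 4.35% for the T tail and 2.88 against 3.06% for shifted starts (control against dosed). Differences in shares are log2 odds, dosed minus control, and each adjusted p of a named measure was 0.986.

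miR-21 shows what such variants look like. Over the 8 sows 47.7% of its reads were the 23 nt form tAGCTTATcagactgatgttgac. A further 23.5% were 1 base shorter, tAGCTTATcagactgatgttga, and 5.13% carried a T at the end, tAGCTTATcagactgatgttgact. The mean 3′ end of miR-21 lay at -0.336, -0.236, -0.321 and -0.413 bases in the controls and -0.328, -0.255, -0.384 and -0.358 bases in the dosed sows. Its A tail was 4.95, 5.55, 4.74 and 4.31% in the controls and 5.69, 5.92, 4.69 and 4.40% in the dosed sows, and its T tail 4.90, 5.91, 5.41 and 4.30% in the controls and 5.25, 5.996, 5.21 and 5.03% in the dosed sows. The groups overlapped in each, with differences of 0.08 and 0.08. In the first let-7 read the T tail was 11.9, 11.1, 12.04 and 11.4% in the controls and 13.03, 10.9, 12.6 and 12.1% in the dosed sows, the highest of the 5 most abundant miRNAs, with a difference of 0.07 (95% interval -0.09 to 0.24). In the first miR-10 read 13.03 ± 0.453% against 13.4 ± 0.314% of reads had a shifted start. Its form 1 base shorter at the start, accctgtagaaccgaatttgt, made 3.99% of its reads. The remaining measures of miR-143 and of miR-148 and miR-152 differed by 0.10 or less.

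The 5 end measures with the smallest p were small shares. The T tail of miR-28 and miR-708 (aAGGAGCTcacagtctattga) was 1.88, 2.06, 1.09 and 1.08% in the controls and 0.702, 1.18, 0.867 and 1.04% in the dosed sows, a difference of -0.66 (95% interval -1.14 to -0.18). Controls 1 and 2, both under-8% libraries, were higher than the other 6 sows. The difference was -1.08 within those libraries and -0.24 within the others. The T tail of miR-542 was 0.0718, 0.259, 0.233 and 0.187% in the controls and 0.171, 0.0748, 0.0800 and 0.0543% in the dosed sows. The start of miR-128 (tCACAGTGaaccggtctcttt) was shifted in 2.22, 2.51, 2.55 and 2.06% in the controls and 3.03, 2.71, 2.59 and 2.61% in the dosed sows. It was the 1 measure of 376 (0.266%) in which all dosed sows were above all controls. The T tail of miR-210 was 0.982, 1.24, 1.06 and 0.996% in the controls and 1.40, 1.23, 1.27 and 1.12% in the dosed sows, and the A tail of miR-31 0.280, 0.511, 0.317 and 0.388% in the controls and 0.579, 0.572, 0.564 and 0.395% in the dosed sows. The widest 95% Wilson intervals of these single-sow shares spanned 2.38, 0.484, 0.893, 0.546 and 0.567 percentage points, in the order given, and cover counting error only.

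Reads of 27 to 49 nt were counted in the same way by their first 20 bases. Their identities are background knowledge and were not matched to a reference. Shown are 4 of the most abundant, because they hold a large share of these reads.
like the 5′ part of a glycine tRNA: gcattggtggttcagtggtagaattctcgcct
like the 3′ end of the U1 spliceosomal RNA: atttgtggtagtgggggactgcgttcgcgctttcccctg
like the 3′ end of 5S ribosomal RNA, shorter: ccgcctgggaataccgggtgctgtaggctt
like the 3′ end of 5S ribosomal RNA, longer: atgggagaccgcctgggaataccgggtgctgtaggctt
The first is the kind of fragment that endonucleases cut from mature tRNAs at the anticodon loop.

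No longer fragment passed the test. edgeR called 0 of 10853 fragment groups at an adjusted p under 0.05, and 200 had an unadjusted p under 0.05 (1.84%). DESeq2 called 0, with 241 under an unadjusted p of 0.05. The glycine tRNA-like fragment, 9.97% of reads of 27 to 49 nt, had 87421, 61249.5, 98557 and 82595 CPM in the controls and 165884, 105389, 163158 and 45317 CPM in the dosed sows. Sows 8 and 10 were the highest and sow 11 the lowest, and the difference was 0.54 (95% interval -0.33 to 1.42). The U1-like fragment had 56487, 40063, 22397 and 33972 CPM in the controls and 56480.2, 34717, 16337 and 13303 CPM in the dosed sows. It differed by -0.13 within the under-8% libraries and by -0.95 within the over-8% libraries, in which reads of 40 to 49 nt were scarce. The part of read length in this was not tested. The shorter 5S-like fragment had 20210.4, 21924, 41205 and 31977 CPM in the controls and 23517, 21012, 53402 and 40365 CPM in the dosed sows, higher in all 4 over-8% than in all 4 under-8% libraries. The longer 5S-like fragment had 29371, 34906, 24150.2 and 34309.8 CPM in the controls and 29087, 31628, 18096 and 17649 CPM in the dosed sows, and differed by -0.35 (95% interval -0.93 to 0.24). Scaled by all deposited reads, the shorter 5S-like fragment turned to -0.22, and the share of fragment groups that were higher moved from 54.7% to 18.2% (of 10441 tested under that scaling, with a median of -0.32 against 0.04).

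**Figure D5:**
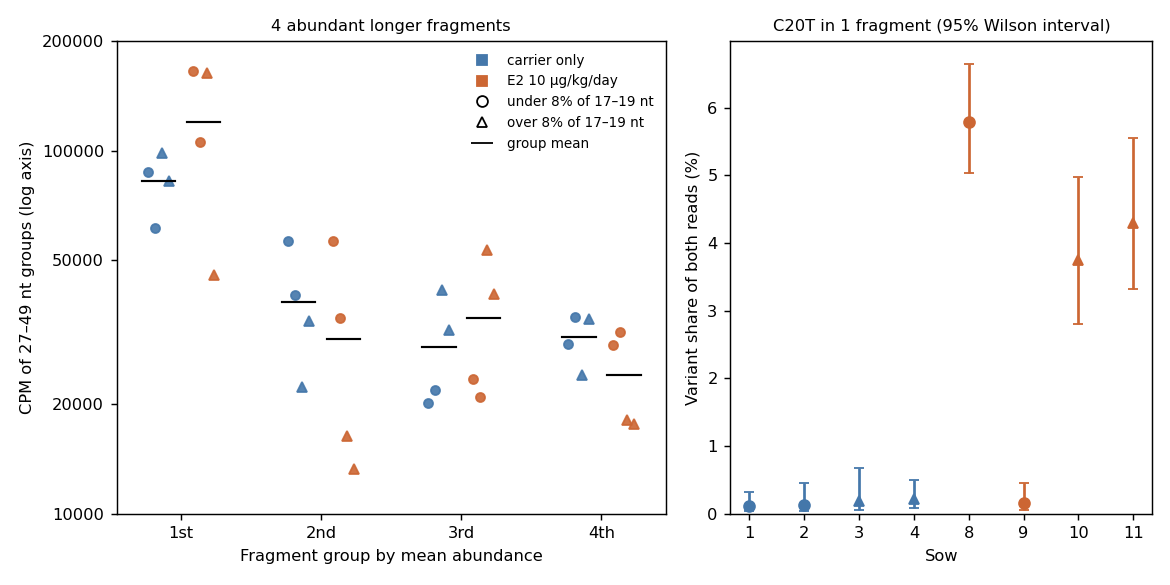
Left, level in each sow of 4 abundant fragment groups of 27 to 49 nt (CPM, log axis), in order of mean level, with group means as bars. Right, share of the C20T variant (%) at 1 position of a U2-like fragment in each sow, with 95% Wilson intervals. The groups overlap in all 4 fragments, and the variant share is 3.74 to 5.79% in dosed sows 8, 10 and 11 and at most 0.214% in the other 5 sows.

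Of the 5 fragments with the smallest p, 3 come from 1 place. Their leading reads resemble U2, another spliceosomal RNA, and differ from its common read at 1 base, shown in capitals.
common: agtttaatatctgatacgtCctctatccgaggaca
variant: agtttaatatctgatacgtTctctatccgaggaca
The change is C20T, with positions counted from 1 at the fragment's first base. The variant group had 0, 0, 0.935 and 0 CPM in the controls and 5.53, 0.288, 6.82 and 6.14 CPM in the dosed sows. Among all reads that held the 19 bases around the position, the variant made 0.109, 0.125, 0.185 and 0.214% in the controls. It made 5.79, 0.153, 3.74 and 4.30% in dosed sows 8, 9, 10 and 11 (188, 3, 45 and 55 variant reads beside 3057, 1962, 1157 and 1224 common ones). In the 7 sows on other doses it was 0 to 0.419%. The share was thus high in 3 of 4 dosed sows and in no other of the 15, and sow 9 was like the controls. The 2 other fragments of this place, tctctatccgaggacaatatattaaatg and tcagtttaatatctgatacgttctctatc, had 0, 0, 0 and 0.269 CPM in the controls and 6.76, 0, 11.5 and 11.3 CPM in the dosed sows and 3.14, 1.09, 1.87 and 1.88 CPM in the controls and 5.73, 1.73, 14.1 and 17.1 CPM in the dosed sows. The second of these was grouped by its first 20 bases, which end before the changed base. Its levels thus count reads with either base together and are not levels of the variant. The group of 18 to 26 nt with the smallest p, given above, is a shorter read of the same place.

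The other 2 of the 5 were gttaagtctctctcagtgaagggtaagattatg, at 0, 0, 0 and 0.269 CPM in the controls and 8.60, 13.2, 2.13 and 1.36 CPM in the dosed sows, and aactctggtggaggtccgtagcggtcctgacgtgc, at 6.02, 17.5, 7.01 and 14.5 CPM in the controls and 3.89, 5.75, 2.98 and 3.75 CPM in the dosed sows. In the first all dosed sows were above and in the second all were below the controls, as in 0.553% and 0.719% of all fragment groups. A variant of the glycine tRNA-like fragment with the change G10C was also higher in each dosed sow. However, it made at most 0.00508% of the reads that held the 19 bases around the position in any of the 8 sows.

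Some reads of 36 to 49 nt were made of 2 miRNA reads joined end to end. The 8 libraries held 30713 such reads, and 64.7% of them joined miR-22 to miR-21. The most frequent is shown with both seeds in capitals, and it was read 11057 times.
miR-22 to miR-21: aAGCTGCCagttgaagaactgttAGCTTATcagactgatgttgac
miR-22 made 0.421% of all miRNA reads and let-7 15.2%, while let-7 was the first partner in 9.03% of joined reads. Joined reads numbered 4175, 6274, 392 and 483 in the controls and 7249, 11283, 583 and 274 in the dosed sows. As a share of reads of 36 to 49 nt they made 0.228, 0.337, 0.0782 and 0.0422% in the controls and 0.291, 0.625, 0.131 and 0.0515% in the dosed sows. The share was higher in the under-8% libraries of both groups, and the groups overlapped.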

How the data were processed

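Small RNA libraries were made from endometrial RNA of 15 sows, extracted with TRIzol and prepared with the NEBNext small RNA set, per the labels' protocols. The authors deposited, for each library, every distinct read with its raw count, with no normalization. The submitters' processing notes list the tool FastQC and 4 genome builds with no role given: GRCm38, UMD3.1, GRCh37.p5 and Sscrofa10.2. Adapter removal and aligner are not given in the sources used here. Deposited reads were 17 to 49 nt long, 7363900 to 14945018 per library in the 8 sows compared, and carry no molecular identifiers, so intervals on shares of reads (95%, Wilson) cover counting error only.

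No miRNA table or genome was used here. Reads of 18 to 26 nt were grouped by their first 18 bases, and those of 27 to 49 nt by their first 20. Groups of at least 30 reads over the 15 sows that passed filterByExpr were tested with edgeR 4.0.16 (R 4.3.3): TMM, glmQLFit with robust estimation and glmQLFTest on all 15 sows, which share 1 estimate of the spread, with the term middle dose minus control, p-values adjusted by Benjamini-Hochberg and a threshold of 0.05. The planned count per annotated miRNA and the arm shares could not be formed, and read groups with a listed seed stand in their place. A group that was a 1-base variant of a group at least 20 times as abundant with a listed seed, or a shift of it, was not a miRNA read group. The limit of 20% of occurrences in longer reads was set after the data were seen. CPM are relative to the TMM-scaled total of the 18 to 26 nt (or 27 to 49 nt) reads. End measures were tested with limma 3.58.1 on log2 odds with 0.5 added to both counts, or on bases. DESeq2 1.42.0 was an alternative, beside other scalings, filters, read assignments, fits of the 8 sows only, a length-class term, fits within each length class and each sow left out. The tests were checked on simulated data. Scripts used Python 3.11.15 with scipy 1.17.1.

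The text names the 10 groups of smallest p, the 15 most abundant miRNA read groups, the most abundant and smallest-p member of each of 20 lists, the 5 families, end measures and fragments of smallest p, the ends of the 5 most abundant miRNAs and the 5 most abundant fragments, of which 1 is not reported here. Reads named beyond this rule were chosen after their values were seen. The members and lists were chosen with earlier results of these data known. Per the series' design text, tissue of 1 sow of the lowest dose was extracted again, and its 2 libraries were summed. The other libraries come from separate sows, and no sample was left out.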

Additional observations from a re-analysis of the deposited data

Results flagged for a closer look

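In 13 of 227 sets of 4 sows examined, 1 sow lay far from the other 3, where chance alone gives about 1 in 20 for continuous values. That rate does not hold where the other 3 sows stood at 0, because any read then makes a flag. Each flag at 0.269 CPM below rests on 1 read. Of the abundant miRNAs, miR-30 in control 1 was at 18037 CPM, and the next control was at 15095 CPM. miR-199-3p in dosed sow 11 was at 6903 CPM, and the next dosed sow was at 10777 CPM. The mean 3′ end of miR-148 and miR-152 lay at -0.116 bases in control 4 and at -0.0163 or more in the other controls. The A tail of miR-31 was 0.395% in dosed sow 11, against 0.564% or more in the other dosed sows.

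The others are rare reads. The read tctctatccgaggacaatatatt was at 0 CPM in dosed sow 9 and at 3.87 CPM or more in the other 3 dosed sows. The read acaacgggaactccatattttt was at 0.484 CPM in control 2 and 0 in the other controls. The read cagccgacttagaactggtgcggacc was at 31.7 CPM in control 2 and at most 10.6 CPM in the other controls. The read with the miR-122 seed, aGGAGTGTgtaacaactca, was at 167 CPM in control 2 and at most 9.45 CPM in the other controls. The read with the miR-10 seed, gACCCTGTtgagcttgactct, was at 83.5 CPM in control 2 and at most 16.9 CPM in the other controls, and at 11.7 CPM in dosed sow 11 against at most 8.02 CPM in the other dosed sows. The fragment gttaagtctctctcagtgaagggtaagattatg was at 0.269 CPM in control 4 and 0 in the other 3. The U2-like variant fragment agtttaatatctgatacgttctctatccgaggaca was at 0.935 CPM in control 3, and tctctatccgaggacaatatattaaatg at 0.269 CPM in control 4, both at 0 in the other controls.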

How the results depend on the processing

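The count of 0 called miRNA families held under all alternatives run, and that of 0 called read groups, fragments and end measures under all but these. Within the under-8% libraries (2 against 2 sows) 1 read group was called, 8 fragments and 2 end measures, the T tail of miR-28 and miR-708 and the start of a read with the miR-17 seed. Within the over-8% libraries 51 read groups and 17 fragments were called. Of the 11123 read groups, 8980 and 10824 were also tested within the under-8% and the over-8% libraries. Of the 10853 fragment groups these were 9808 and 7933. Leaving out 1 sow gave 0 to 1 called read groups: 1 higher without control 2, 1 lower without dosed sow 8 and 1 higher without dosed sow 9, none of them a miRNA read group. With 2 against 2 sows, 1 sow can decide a call.

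As 1 sow at a time was left out, the sign of these log2 differences was not stable: miR-21 -0.0848 to 0.49, miR-143 -0.10 to 0.29, let-7 reads 1, 3 and 5 -0.0662 to 0.35, -0.0993 to 0.24 and -0.0564 to 0.21, miR-148 and miR-152 -0.0425 to 0.51, miR-27 -0.0105 to 0.27, miR-26 -0.0089 to 0.29, miR-30 -0.25 to 0.30, miR-99 and miR-100 -0.0785 to 0.14, miR-200a and miR-141 -0.23 to 0.22, miR-200b, miR-200c and miR-429 -0.12 to 0.27, miR-182 -0.28 to 0.10, miR-34 and miR-449 -0.32 to 0.25, miR-126-3p -0.0012 to 0.40, miR-146 -0.44 to 0.24, miR-150 -0.0012 to 0.62, miR-1 and miR-206 -0.34 to 0.34, miR-499 -0.28 to 0.0252, miR-210 -0.13 to 0.36, miR-101 -0.0264 to 0.55, miR-145 -0.0651 to 0.36, miR-31 -0.0142 to 0.42, miR-122 -0.0455 to 0.27 and the shorter 5S-like fragment -0.0043 to 0.49. Of 3′ ends (bases) these were miR-148 and miR-152 -0.0041 to 0.0325, let-7 -0.0034 to 0.0184, miR-143 -0.0062 to 0.0243, miR-10 -0.0153 to 0.0073 and miR-21 -0.0335 to 0.0257. Of A tails (log2 odds) these were miR-148 and miR-152 -0.0111 to 0.18, let-7 -0.0143 to 0.11 and miR-10 -0.15 to 0.0926. Of T tails these were miR-21 -0.0087 to 0.15 and miR-10 -0.13 to 0.0307, and of starts miR-21 -0.0049 to 0.17, let-7 -0.11 to 0.0556 and miR-143 -0.0969 to 0.0968. The share of 17 to 19 nt ran from -1.05 to 2.65 percentage points, that of 40 to 49 nt from -2.53 to 1.24, and the number of miRNA read groups of at least 10 CPM from -1 to 3.33.

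Within the over-8% libraries the sign turned in miR-30 (-0.39), miR-99 and miR-100 (-0.12), let-7 read 5 (-0.13), miR-200a and miR-141 (-0.23), a rare read with the miR-27 seed (-0.0676), miR-200b, miR-200c and miR-429 (-0.0809), miR-451 (-0.0857), miR-486 (-0.21), miR-1 and miR-206 (0.41), miR-122 (-0.0919) and miR-210 (-0.20). Within the under-8% libraries it turned in miR-143 (-0.0595), miR-145 (-0.0042), miR-22 (-0.0139), miR-182 (0.0923), 2 reads with the miR-34 and miR-449 seed (0.92 and 0.56) and miR-146 (0.56). Counting only reads identical to the leading read, miR-99 and miR-100 had -0.0214 and miR-146 0.0725. With starts up to 2 bases apart merged, miR-99 and miR-100 had -0.0259. With groups of at least 10 CPM only, miR-34 and miR-449 had 0.000232. Scaled by all deposited reads, the shorter 5S-like fragment had -0.22. The cause of these turns was not tested.

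The other alternatives planned kept the direction of the single reads, families, fragments and end measures named. Fits within each library kind, not planned for end measures, turned the sign of some. In the under-8% libraries these were miR-148 and miR-152 (3′ end -0.0075, start -0.0310), miR-143 (start -0.0984) and miR-10 (A tail 0.0556). In the over-8% libraries these were miR-143 (3′ end -0.0059, A tail -0.0127), let-7 (A tail -0.0130, start 0.0397) and miR-10 (T tail 0.0017). The filter that keeps every feature with 1 read or more was not run for groups and fragments, and groups of at least 30 reads stood in its place. The fit of miRNA read groups together with all other groups is the one reported. No paired analysis was possible because the groups share no replicate number.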

Other observations

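One read set sows apart across the groups. It resembles a piece of 28S ribosomal RNA (an identity not matched to a reference), gacgacctcagatcagacg, and had 125, 156, 76.4 and 0.123 CPM in the controls and 0, 0.251, 0 and 0.0824 CPM in the dosed sows. It stood above 76 CPM in controls 1, 2 and 3 and at or below 0.251 CPM in control 4 and all 4 dosed sows, and 2 of the 7 sows on other doses had more than 10 CPM. A common read that shares its bases 3 to 18, cgcgacctcagatcagac, had 17490.3, 11126, 16475 and 28771 CPM in the controls and 14905, 11972, 21204 and 25799 CPM in the dosed sows. The rare read is the 1 group called within the under-8% libraries (edgeR's adjusted p = 4.54e-08), while over all 8 sows its adjusted p was 1.00.

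Within the over-8% libraries, where 10824 of the 11123 groups were also tested, 51 read groups were called, 26 higher and 25 lower. None of the 51 was a miRNA read group, 13 were 1-base variants of a more abundant read, 40 had a mean under 10 CPM and 17 had 0 reads in one of the groups.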
